A study of Mus musculus with 20 samples.

Results

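Liver RNA of 10 male mice aged 11 weeks was compared, 5 of the Titan line and 5 unselected controls, out of the 20 livers sequenced in all. The livers were chosen by their titles, replicates 1 to 5 of young Titan and replicates 1 to 5 of young control, and the values rest on reads counted on the reverse strand. Titan, also called DU6, is a non-inbred line bred over decades for high body mass, and the control FZTDU is the randomly mated population from which it was drawn. The other 10 livers, 5 of each line at 19–21 weeks, shared the fit and served to show where the difference at 11 weeks was unlike the later one. No engineered allele or agent is given for any group, and all were kept free of specific pathogens on a 12:12-h light-dark cycle with a standard breeding diet available at all times. The Titan line was re-established from few breeding animals, so alleles favoured by selection, alleles fixed by chance and the consequences of a large, fat body cannot be told apart in a comparison of the lines. The genes of cytochrome P450, fatty acid elongation and the methionine cycle are not described here.

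The liver turns sugar and amino acids into fat, exports or stores that fat, burns fatty acids, clears nitrogen and bile acids, and secretes most of the proteins of plasma. Many of its genes also differ between males and females. In mice this difference is set largely by growth hormone, which males release in pulses and females almost continuously, and which acts in hepatocytes through its receptor, the kinase JAK2 and the transcription factor STAT5b. Pulses keep male-biased genes on and female-biased genes off.

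Reads on genes per liver ranged from 10465526 to 23295028 in Titan and from 12209454 to 22166755 in control mice (medians 13971374 and 14283662), and values are given as CPM, counts scaled to a common library size after TMM normalisation. Titan replicate 1 and control replicate 4 stood apart, with 34.73% and 38.21% of mapped reads outside genes, against group medians of 23.46% and 24.1%. Mitochondrial transcripts took 4.68% to 15.29% of gene reads in Titan and 7.12% to 15.12% in control livers. The tissue label fitted the RNA, since the 16 hepatocyte markers summed to between 119200 and 140600 CPM in Titan and between 118600 and 143800 CPM in control livers, and the pancreatic genes Ins1, Ins2, Amy2a5, Cpa1, Cpb1, Pnlip and Prss2 had no read, while Cela2a had 41 counts and Ctrb1 1 over the 10 livers.

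Of 13783 genes tested, 997 (7.23%) rose and 1060 (7.69%) fell in Titan livers, together 2057 (14.9%), by edgeR's quasi-likelihood F test at an adjusted p under 0.05. Log2 fold changes of Titan over control are given below ± SE with this adjusted p. In bulk liver, fewer cells of a type and less RNA per cell cannot be told apart. The CPM of the groups did not overlap for 1643 genes (11.9% of those tested). Of the 2057 called genes, 1900 had the same sign at 19–21 weeks and 730 were called there as well in the same direction. The difference between the ages was tested for each gene as an interaction, which gave an unadjusted p under 0.05 for 1230 genes (8.92%) and an adjusted one for 1 gene (0.00726%), Gm6614. Adjusted interaction p-values are given with the genes below, none of which but that of Gm6614 passed the test. Counts over lists use the unadjusted p. Of the 2057 genes called at 11 weeks, 534 had an unadjusted interaction p under 0.05, so lists rich in calls face a higher share than 8.92%. The change was larger at 11 weeks for 866 of the 997 rises and 855 of the 1060 falls, as calls were chosen by their 11-week values. The 5 Titan livers did not stand equally far from the controls. Titan replicate 4 was the lowest Titan liver for 494 of the 997 upregulated genes (49.5%) and the highest for 355 of the 1060 downregulated ones (33.5%), whereas Titan replicate 2 was nearest to the controls for 86 and 122 genes.

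**Figure D1:**
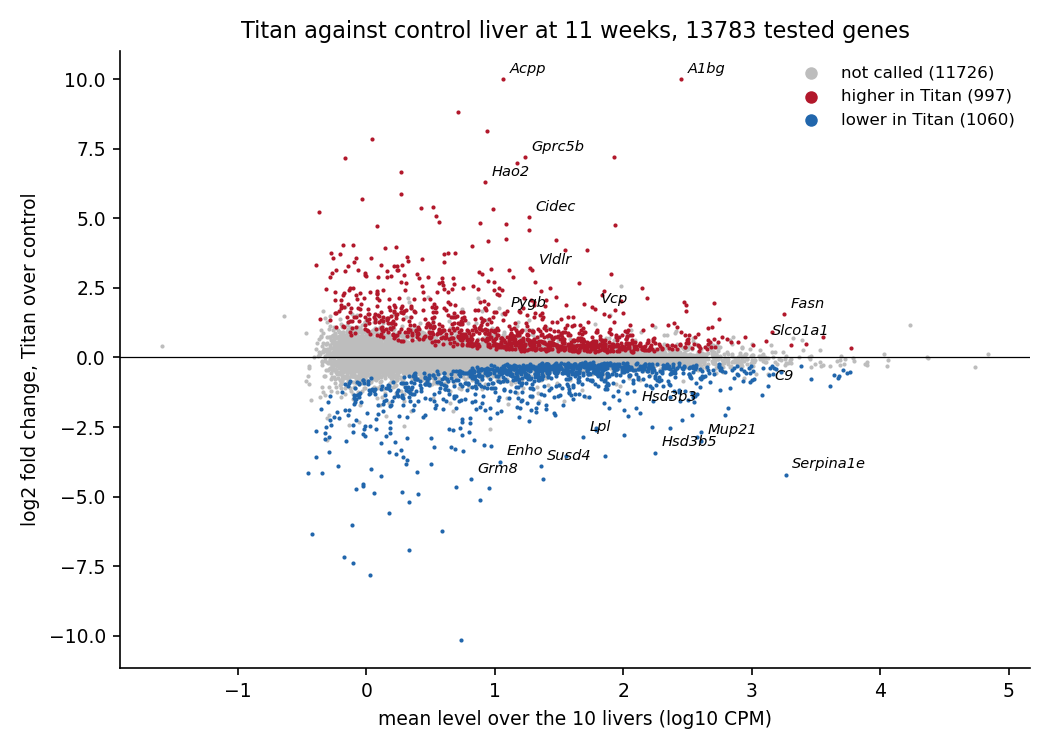
Log2 fold change of Titan over control livers at 11 weeks (y axis) against the mean level over the 10 livers (x axis, log10 CPM), 1 point per tested gene. The 997 upregulated genes are red, the 1060 downregulated genes blue and the others grey, and some genes of the text are labelled.

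Among the gene lists, those of genes that differ between the sexes held the largest shares of called genes. Most tested female-biased genes rose and most tested male-biased genes fell in the livers of male Titan mice. All lists were chosen with earlier results of these data known, so their counts describe the pattern and do not test it. Of 30 tested genes on a list of male-biased genes, 19 fell (63.33%, against 7.69% of all tested genes) and 4 rose, with a median log2 fold change of -0.83. Of 23 tested genes on a list of female-biased genes, 15 rose (65.22%, against 7.23% of all tested genes) and 1 fell. Their median was 2.39, against a median of -0.016 over all tested genes. Some entries were misplaced, as noticed after their values were seen. Tox and Trim24 are known as transcriptional regulators more abundant in female mouse liver but stood on the male-biased list, and Hao2 stood on it while its older name Hao3 was on the other list. With these 3 genes moved, 1 of 27 male-biased genes rose and 19 fell, and 18 of 26 female-biased genes rose and 1 fell. In 8 of the 23 female-biased genes at least 1 control lay below the limit of the expression filter (0.7976 CPM) while every Titan liver reached it. Titan livers alone could thus pass these genes to testing, which favours rises among them. Of the other 15, 8 rose and 1 fell, with a median log2 fold change of 1.28. This split does not remove the filter's effect in full. Slc22a29 stayed among the 15 with every control below the limit, because Titan replicate 4 (0.7943 CPM) lay below it too. Ntrk2 was set aside for control replicate 2 alone (0.4165 CPM). With at least 10 counts required in every liver, 7 female-biased genes were called up, and without Titan replicate 1 and control replicate 4 the counts were 13 down for the male-biased and 13 up for the female-biased list.

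Some promoters of these genes hold the letters TTCNNNGAA, the palindrome that STAT5 proteins are known to bind, read on either strand as the same motif. In the RefSeq windows of GRCm38.p6, from 250 bases before to 50 after a start site, it occurred for 9.55% of the 27025 genes in the table and for 8.41% of the 9919 tested genes found there. Of the upregulated female-biased genes with a window, 3 of 14 held it, as did 1 of 5 of those not called, and of the downregulated male-biased genes 2 of 17. The windows of A1bg (chr15:60921221-60921520, minus strand), Hamp2 (chr7:30924132-30924431, minus strand), Slc22a26 (chr19:7802618-7802917, minus strand) and Keg1 (chr19:12695540-12695839, plus strand) are shown because these genes moved in the 2 directions and hold the letters, which are in capitals.
A1bg: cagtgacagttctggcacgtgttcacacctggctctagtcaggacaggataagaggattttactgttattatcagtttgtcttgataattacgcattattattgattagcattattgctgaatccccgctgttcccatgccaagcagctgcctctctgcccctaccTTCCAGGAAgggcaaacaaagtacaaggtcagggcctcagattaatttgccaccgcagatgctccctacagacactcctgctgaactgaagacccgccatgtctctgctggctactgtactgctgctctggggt
Hamp2: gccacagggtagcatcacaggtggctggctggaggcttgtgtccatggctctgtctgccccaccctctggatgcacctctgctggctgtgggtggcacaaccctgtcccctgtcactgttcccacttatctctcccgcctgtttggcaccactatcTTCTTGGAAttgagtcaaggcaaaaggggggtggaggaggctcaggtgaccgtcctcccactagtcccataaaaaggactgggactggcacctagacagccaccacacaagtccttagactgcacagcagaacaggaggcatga
Slc22a26: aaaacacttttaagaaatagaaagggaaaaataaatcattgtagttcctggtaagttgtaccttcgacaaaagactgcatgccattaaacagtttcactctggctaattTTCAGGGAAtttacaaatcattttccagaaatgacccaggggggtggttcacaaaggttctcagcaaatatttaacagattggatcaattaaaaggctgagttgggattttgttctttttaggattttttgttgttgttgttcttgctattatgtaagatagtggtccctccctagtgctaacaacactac
Keg1: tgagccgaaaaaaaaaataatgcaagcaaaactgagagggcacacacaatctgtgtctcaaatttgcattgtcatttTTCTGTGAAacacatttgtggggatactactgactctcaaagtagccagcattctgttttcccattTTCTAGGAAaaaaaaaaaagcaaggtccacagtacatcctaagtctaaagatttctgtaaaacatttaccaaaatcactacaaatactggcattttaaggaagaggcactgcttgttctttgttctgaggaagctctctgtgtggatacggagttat
The first match began 84 bases before the start in A1bg, 94 in Hamp2, 141 in Slc22a26 and 173 in Keg1, which held a second one. A match describes the letters only, and binding was not measured in these data.

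A1bg, a secreted immunoglobulin-like glycoprotein of female liver, was counted at 891, 1060, 7.005, 6.25 and 860.2 CPM in Titan replicates 1 to 5 and at 0, 0.0833, 1.73, 0.305 and 0.06898 CPM in the controls. Replicates 1, 2 and 5 thus stood far above replicates 3 and 4, which were themselves above every control (log2 fold change 10.01 ± 1.31, adjusted p = 2.8e-05). Hao2, a peroxisomal hydroxyacid oxidase, reached 2.41, 25.6, 6.49, 0.794 and 48.5 CPM in Titan and 0.169, 0.0833, 0.545, 0.122 and 0 CPM in control livers. Replicates 5 and 2 were highest and replicate 4 was lowest (log2 fold change 6.29 ± 1.05, adjusted p = 3.3e-04). Acot3 and Acot4, which release fatty acids from coenzyme A in peroxisomes, rose together. Acot3 stood at 37.1, 40.4, 11.4, 9.43 and 18.9 CPM in Titan and 0.169, 0.9996, 2.97, 1.097 and 0.414 CPM in control livers, without overlap (log2 fold change 4.25 ± 0.61, adjusted p = 7.1e-05), and Acot4 rose with a log2 fold change of 1.56 ± 0.22, adjusted p = 7.2e-05. Slc22a26, Slc22a27 and Slc22a29, neighbouring organic anion transporters, were scarce in controls. Slc22a26 stood at 2.21, 24.7, 6.13, 3.87 and 57.1 CPM in Titan and 0, 0.9996, 0.842, 0.244 and 0.138 CPM in control livers, again highest in replicates 5 and 2 (log2 fold change 5.35 ± 0.97, adjusted p = 6.7e-04). The receptor tyrosine kinase gene Ntrk2 stood at 120.5, 86.4, 77.6, 73.5 and 133 CPM in Titan and at 6.33, 0.416, 19.3, 3.72 and 2.41 CPM in control livers, where replicate 3 was the highest control and still below every Titan liver (log2 fold change 3.86 ± 0.73, adjusted p = 9.8e-04).

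Other female-biased genes rose more evenly from liver to liver. Vldlr, the receptor that takes up triglyceride-rich lipoproteins, was counted at 39.97, 40.8, 30.1, 30.2 and 34.7 CPM in Titan and 9.195, 1.75, 2.48, 1.097 and 5.79 CPM in control livers. All Titan livers were within a narrow range, well above the scattered controls (log2 fold change 3.15 ± 0.38, adjusted p = 1.3e-05). Rtn4, a protein that shapes the endoplasmic reticulum, stood at 124, 145, 115, 87.5 and 120.3 CPM in Titan and 10.8, 35.6, 23.1, 17.3 and 25.8 CPM in control livers (log2 fold change 2.39 ± 0.25, adjusted p = 2.9e-06). Gas6, a ligand of TAM receptors, rose from 31.1 ± 9.17 to 75.8 ± 8.46 CPM (log2 fold change 1.28 ± 0.22, adjusted p = 4.4e-04). Hamp2, a hepcidin-like peptide, rose from 0.934 ± 1.22 to 16.8 ± 5.2 CPM (log2 fold change 4.20 ± 0.67, adjusted p = 2.1e-04), where the value after each mean is the SD of 5 livers. None of these genes overlapped between the groups. Lpl, the lipase that lines capillaries and is barely made by the adult liver, was the one member that fell. It stood at 4.75, 8.99, 11.9, 19.9 and 14.5 CPM in Titan and 129, 51.8, 65.03, 129 and 55.3 CPM in control livers (log2 fold change -2.85 ± 0.44, adjusted p = 1.5e-04).

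The rise did not extend to the whole female programme. The sulfotransferases Sult2a1 to Sult2a6, Sult3a1, Sult3a2 and Sult1e1 were not tested because they had between 0 and 44 counts over the 10 livers. Cux2, a repressor known as a switch of female liver, averaged 0.829 ± 0.134 CPM in control and 1.39 ± 0.703 CPM in Titan livers and was not called (log2 fold change 0.79 ± 0.33, adjusted p = 0.111). Fmo2, Fmo1, Prom1, Papss2, Corin and Fabp5 were not called either, with log2 fold changes from -0.47 to 0.22. Tox (log2 fold change 1.37 ± 0.31, adjusted p = 0.00386) and Trim24 (log2 fold change 0.74 ± 0.19, adjusted p = 0.00907) rose.

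Among male-biased genes, the falls were large for several that are nearly off in female liver. Susd4, a complement regulator, was counted at 2.83, 1.25, 2.19, 7.15 and 1.76 CPM in Titan and 54.6, 29.6, 25.2, 64.3 and 38.6 CPM in control livers. Replicate 4 was the highest Titan liver and lay below every control (log2 fold change -3.89 ± 0.48, adjusted p = 1.6e-05). Hsd3b5, a steroid-reducing enzyme of male liver, stood at 3.24, 5.001, 30.6, 96.3 and 18.8 CPM in Titan and 355, 358, 284, 318 and 305 CPM in control livers, with replicates 1 and 2 lowest and replicate 4 highest in Titan (log2 fold change -3.42 ± 0.68, adjusted p = 0.00162). Mup21, of the major urinary proteins that carry pheromones, stood at 64.98, 43.7, 121, 207 and 17.5 CPM in Titan and 618, 716, 874, 745 and 634 CPM in control livers (log2 fold change -2.99 ± 0.42, adjusted p = 5.2e-05). Mup20, known as darcin, fell too (log2 fold change -2.53 ± 0.49, adjusted p = 0.00132), although its lowest control, replicate 2, lay just below its highest Titan liver, replicate 4. The urinary protein genes are close paralogs, and reads shared between them were not counted. Selenbp2 stood at 9.51, 12.4, 139.7, 191 and 106 CPM in Titan and 754, 543, 720.5, 451 and 854 CPM in control livers, without overlap (log2 fold change -2.86 ± 0.78, adjusted p = 0.0156).

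Gstp1, a glutathione transferase, fell from 159 ± 39.5 to 43.1 ± 14.7 CPM (log2 fold change -1.88 ± 0.26, adjusted p = 6e-05). Ces3b, a carboxylesterase, fell from 509 ± 40.8 to 191 ± 58.4 CPM (log2 fold change -1.41 ± 0.18, adjusted p = 2e-05). Ugt2b1, a glucuronosyltransferase, fell from 1253 ± 195 to 676 ± 38.5 CPM (log2 fold change -0.89 ± 0.13, adjusted p = 7.2e-05). None of the 3 overlapped between the groups. Serpina1e, an antitrypsin paralog, behaved otherwise. It stood at 198, 168, 145, 229 and 206 CPM in Titan and 6756, 156, 5120, 5302 and 218 CPM in control livers, so that control replicates 2 and 5 shared the Titan level and the other 3 controls stood far above it (log2 fold change -4.21 ± 1.0, adjusted p = 0.00604). Slco1a1, a male-biased transporter of organic anions, was the one male-biased gene that rose after the 3 reassignments. It was counted at 1526, 1549, 1564, 1548 and 1560 CPM in Titan and 1088, 1092, 984, 959.7 and 1000 CPM in control livers, each group within a narrow range (log2 fold change 0.60 ± 0.10, adjusted p = 5.1e-04).

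**Figure D2:**
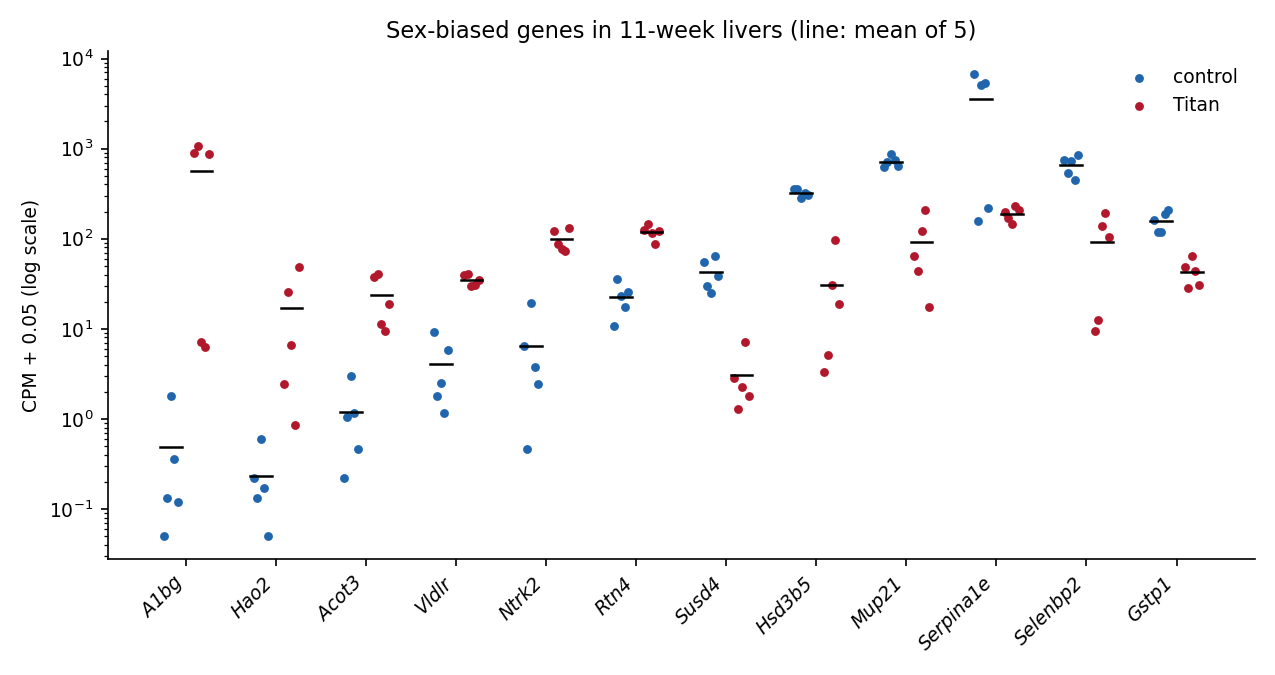
Levels of 12 sex-biased genes in each 11-week liver (y axis, CPM plus 0.05 on a log scale), with controls in blue, Titan in red and a line at each mean of 5. The genes A1bg to Rtn4 rose and the genes Susd4 to Gstp1 fell, with A1bg and Serpina1e each split into separate levels within a group.

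The mean log2 difference from the 11-week controls over each list orders the livers. For the male-biased list it ran from -1.24 in Titan replicate 2 to -0.63 in Titan replicate 4 and from -0.35 to 0.17 in controls. For the female-biased list it ran from 1.51 in Titan replicate 4 to 2.81 in Titan replicate 5 and from -0.38 to 0.75 in controls. Without the 8 genes with any control but no Titan liver below the filter limit, it ran from 0.87 to 1.48 in Titan and from -0.42 to 0.42 in controls. At 19–21 weeks the medians of the lists with the 3 genes moved were nearer to 0, at -0.22 and 0.55. An unadjusted interaction p under 0.05 was found for 13 of 27 male-biased and 13 of 26 female-biased genes. A smaller change at the later age was common among all genes called at 11 weeks, as given above. Susd4 changed by -1.33 on the log2 scale at 19–21 weeks (interaction adjusted p = 0.184), Gstp1 by -0.38 (adjusted p = 0.183), Vldlr by 0.95 (adjusted p = 0.169), Hao2 by -0.16 (adjusted p = 0.216) and Slco1a1 by 0.01 (adjusted p = 0.211).

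**Figure D3:**
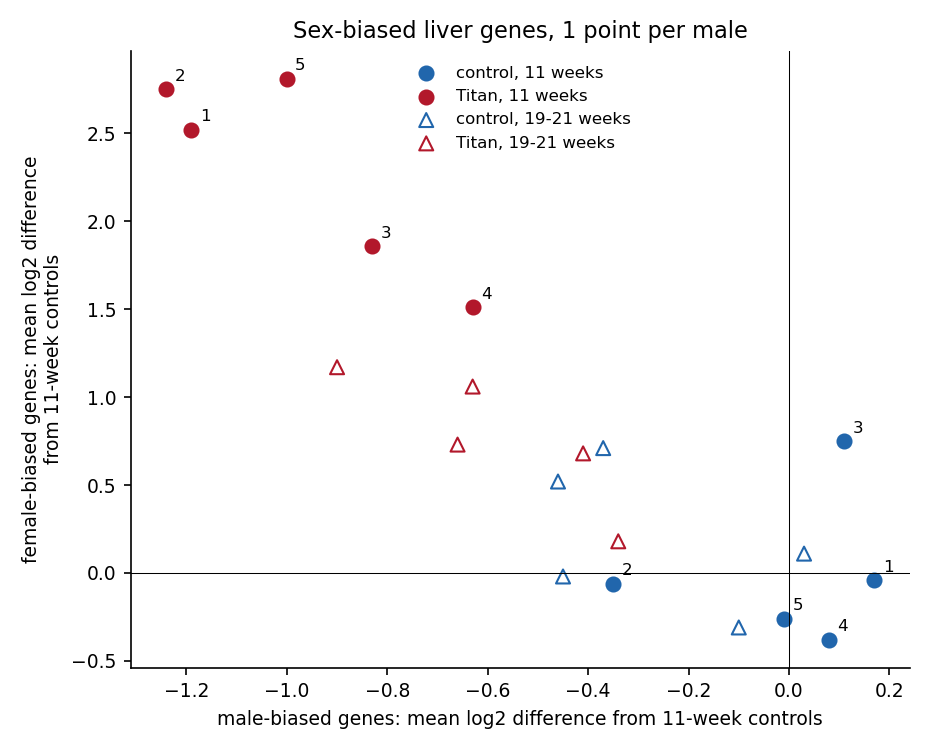
Mean log2 difference from the 11-week control mean over 30 male-biased (x axis) and 23 female-biased genes (y axis, lists as first drawn up), 1 point per male. The 5 Titan mice of 11 weeks lie at the upper left, numbered by replicate, and those of 19–21 weeks lie lower, partly among the controls of their age.

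Few genes of the growth hormone pathway were called. Of 22 tested genes of the pathway and of the insulin-like growth factor (IGF) system, 1 rose and 1 fell, with a median log2 fold change of -0.04. The share called was 9.09%, against 14.9% of all tested genes. Hormone release and STAT5 activity were not measured in these data. Igf1, the growth factor made by the liver in response to growth hormone, was counted at 1381, 1824, 1272, 1513 and 1743 CPM in Titan and 1138, 1234, 1395, 1421 and 1544 CPM in control livers. The groups overlapped and the gene was not called (log2 fold change 0.20 ± 0.13, adjusted p = 0.341). Neither were the receptor Ghr (log2 fold change -0.25 ± 0.08, adjusted p = 0.0552), Stat5b (log2 fold change -0.20 ± 0.12, adjusted p = 0.319), Igfals, which stabilizes IGF1 in plasma (log2 fold change -0.36 ± 0.18, adjusted p = 0.207), or Socs2, a target and feedback inhibitor of the pathway (log2 fold change -1.06 ± 0.53, adjusted p = 0.202). Igfbp2, a binding protein that restrains IGF action, stood at 24.8, 12.9, 24.4, 51.1 and 17.4 CPM in Titan and 253, 151, 47.1, 252 and 188 CPM in control livers. Titan replicate 4 just exceeded control replicate 3, and the other livers were separate (log2 fold change -2.78 ± 0.53, adjusted p = 9.6e-04). Its change was -0.51 at 19–21 weeks (interaction adjusted p = 0.29). Stat5a rose from 14.3 ± 1.91 to 20.02 ± 2.64 CPM (log2 fold change 0.49 ± 0.16, adjusted p = 0.0384), with an adjusted p of 0.0992 without Titan replicate 5, and the call was also lost without Titan replicate 1 or 2 or control replicate 2, 3 or 5. Further members were called when single livers were left out, with 2 rises without Titan replicate 3, 2 falls without control replicate 1 or 5 and 4 falls without Titan replicate 4.

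Many fat storage genes rose. Of 20 tested genes of lipid droplet proteins and triglyceride assembly, 9 rose (45%, against 7.23% of all tested genes) and 1 fell (median log2 fold change 0.49). Without Titan replicate 1 and control replicate 4, 6 rose. In 2 of the 20 at least 1 control, but no Titan liver, was below the expression limit. Cidec, which fuses droplets into larger ones, was counted at 40.04, 70.5, 44.7, 8.94 and 15.6 CPM in Titan and 0.422, 2.42, 1.14, 0.427 and 1.104 CPM in control livers. Replicate 2 was highest, and the lowest Titan liver, replicate 4, was above every control (log2 fold change 5.05 ± 0.80, adjusted p = 1.9e-04). Its homologue Cidea stood at 6.13, 8.21, 2.41, 0.695 and 0.8404 CPM in Titan livers and at no more than 0.099 CPM in controls (log2 fold change 5.86 ± 1.55, adjusted p = 0.013). Plin4, a coat protein of droplets, stood at 19.6, 33.05, 40.4, 21.7 and 21.7 CPM in Titan and 2.95, 13.1, 4.36, 2.81 and 8.14 CPM in control livers (log2 fold change 2.14 ± 0.45, adjusted p = 0.00244). Fitm1, needed to bud droplets, rose from 8.55 ± 3.59 to 31.7 ± 6.31 CPM (log2 fold change 1.90 ± 0.35, adjusted p = 8.5e-04), and Mogat1, which makes diacylglycerol, from 0.768 ± 0.6097 to 4.66 ± 2.71 CPM (log2 fold change 2.57 ± 0.49, adjusted p = 0.00102). Mgll, the lipase of monoglycerides, stood at 478, 415, 274, 227 and 352 CPM in Titan and 165, 139.6, 136, 152 and 146 CPM in control livers, without overlap (log2 fold change 1.24 ± 0.17, adjusted p = 3.6e-05). Abhd5, an activator of the lipase ATGL, fell by a small amount (log2 fold change -0.33 ± 0.08, adjusted p = 0.00672). Cidec and Plin4 were also called at 19–21 weeks, with log2 fold changes of 3.71 and 2.61.

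Several genes of fat synthesis rose. Of 26 tested lipogenic genes, elongases left aside, 6 rose (23.08%, against 7.23% of all tested genes) and none fell, with a median log2 fold change of 0.39. When the 11-week livers were fitted alone, 11 rose. At 19–21 weeks none rose, 2 fell and the median was -0.15, and 9 of the 26 had an unadjusted interaction p under 0.05. Fasn, fatty acid synthase, was counted at 4117, 3219, 2058, 1467 and 2473 CPM in Titan and 724, 394, 1112, 1427 and 894 CPM in control livers. Titan replicate 4 lay just above control replicate 4, the highest control (log2 fold change 1.55 ± 0.35, adjusted p = 0.00401). Acaca, which makes malonyl-CoA for it, stood at 234, 205, 114, 81.2 and 153 CPM in Titan and 70.02, 63.4, 69.1, 77.01 and 67.5 CPM in control livers, again with replicate 4 lowest in Titan and nearest to the controls (log2 fold change 1.18 ± 0.20, adjusted p = 4e-04). Me1, malic enzyme and a source of NADPH, stood at 539.5, 592, 474, 232 and 581 CPM in Titan and 102, 109.7, 165, 113 and 169 CPM in control livers (log2 fold change 1.88 ± 0.28, adjusted p = 1.1e-04). Pnpla3, a lipase-related protein of droplets, was nearly silent in controls and stood at 43, 21.7, 11.9, 11.5 and 30.2 CPM in Titan livers against 0.337, 0.167, 1.98, 0.854 and 0.483 CPM (log2 fold change 4.80 ± 0.57, adjusted p = 1e-05). The changes at 19–21 weeks were -0.47 for Fasn (interaction adjusted p = 0.178), -0.25 for Acaca (adjusted p = 0.0905), 0.53 for Me1 (adjusted p = 0.249) and 1.46 for Pnpla3 (adjusted p = 0.29).

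The regulators of fat synthesis differed in behaviour. Srebf1, the transcription factor that drives lipogenesis, averaged 340.4 ± 99.4 CPM in Titan and 271 ± 130.4 CPM in control livers and was not called (log2 fold change 0.33 ± 0.29, adjusted p = 0.504). Pparg, which drives fat storage genes and is low in normal liver, stood at 28.1, 41.5, 23.6, 30.8 and 32.02 CPM in Titan and 6.41, 13.7, 11.6, 7.87 and 12.2 CPM in control livers. All Titan livers were above all controls (log2 fold change 1.59 ± 0.30, adjusted p = 8.8e-04). Ppara, the regulator of fatty acid oxidation, was not called (log2 fold change 0.25 ± 0.13, adjusted p = 0.216). In cholesterol synthesis none of 25 tested genes rose and 2 fell (8%, near the 7.69% of all tested genes). That count of 2 was between 0 and 4 with single livers left out, being 0 without control replicate 4 or 5 or any of Titan replicates 1, 2, 3 and 5, 1 without control replicate 3 and 4 without control replicate 2 or Titan replicate 4.

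Lipid uptake and transport moved in both directions. Of 33 tested genes of lipoproteins and lipid uptake 7 rose (21.21%) and 6 fell (18.18%), against 7.23% and 7.69% of all tested genes. Cd36, the fatty acid translocase, was counted at 291, 393, 196, 112 and 209.8 CPM in Titan and 17.4, 71.6, 72.9, 20.5 and 29.9 CPM in control livers, without overlap (log2 fold change 2.5 ± 0.46, adjusted p = 7.1e-04). Pltp, which moves phospholipids between lipoproteins, stood at 142, 170.5, 167, 129 and 161 CPM in Titan and 29.4, 47.1, 48.9, 25.9 and 36.6 CPM in control livers (log2 fold change 2.03 ± 0.43, adjusted p = 0.00244). Lipg, endothelial lipase (log2 fold change 1.44 ± 0.30, adjusted p = 0.00238), and Apoa4, an apolipoprotein of triglyceride-rich particles (log2 fold change 1.97 ± 0.47, adjusted p = 0.00609), rose with overlap between the groups. Among the falls were genes of high-density lipoprotein. Apoa1, its main protein, fell from 6563 ± 931 to 4513 ± 1158 CPM (log2 fold change -0.54 ± 0.14, adjusted p = 0.012). Apom, which carries sphingosine-1-phosphate, fell from 126 ± 26.2 to 54.5 ± 15.9 CPM (log2 fold change -1.22 ± 0.20, adjusted p = 2.5e-04). Scarb1, the receptor of these particles, fell from 106 ± 27.5 to 68.9 ± 8.39 CPM (log2 fold change -0.62 ± 0.14, adjusted p = 0.00315). Abca1, the exporter that loads them with cholesterol, fell by a log2 fold change of -0.33 ± 0.09, adjusted p = 0.0137.

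Some genes of fatty acid oxidation rose. Of 34 tested genes of fatty acid oxidation and ketogenesis, 7 rose (20.59%, against 7.23% of all tested genes) and none fell (median log2 fold change 0.22). Of the list 11 rose without Titan replicate 4 and 4 without Titan replicate 1 and control replicate 4. Slc25a20, the carnitine carrier of the mitochondrial membrane, stood at 136, 155, 129, 114 and 135 CPM in Titan and 70.9, 86.96, 86.9, 71.7 and 78.6 CPM in control livers, without overlap (log2 fold change 0.76 ± 0.09, adjusted p = 1.2e-05). Acaa1a, a peroxisomal thiolase, rose from 103 ± 14.6 to 229 ± 50.5 CPM (log2 fold change 1.15 ± 0.16, adjusted p = 7e-05), with a log2 fold change of 1.09 at 19–21 weeks. Vnn1, a pantetheinase that responds to fatty acids, stood at 50.9, 61.6, 31.3, 33.1 and 51.5 CPM in Titan and 14.2, 13.5, 3.12, 7.44 and 2.897 CPM in control livers (log2 fold change 2.51 ± 0.51, adjusted p = 0.00175). Its change at 19–21 weeks was -0.68 (interaction adjusted p = 0.144). Cpt1a, which admits fatty acids to the mitochondrion, was not called (log2 fold change 0.31 ± 0.14, adjusted p = 0.147).

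Several genes of sugar metabolism rose. Of 43 tested genes of glycolysis, gluconeogenesis, glycogen and the pentose phosphate pathway, 12 rose (27.91%, against 7.23% of all tested genes) and none fell. Above 0 were 36 of the 43, with a median log2 fold change of 0.33. Only 2 of the 43 showed no overlap between the groups, against 11.9% of all tested genes. Without Titan replicate 1 and control replicate 4, 8 rose. Pygb, the glycogen phosphorylase of brain, stood at 19.6, 18.8, 16.8, 16.2 and 17.6 CPM in Titan and 6.16, 6.497, 5.45, 6.16 and 5.17 CPM in control livers, each group in a narrow range (log2 fold change 1.60 ± 0.13, adjusted p = 1.1e-07). Pcx, pyruvate carboxylase, was counted at 889, 876, 751, 498 and 702 CPM in Titan and 390.0, 469, 416, 468 and 474 CPM in control livers, where replicate 4 of Titan was nearest to the controls (log2 fold change 0.75 ± 0.13, adjusted p = 4.6e-04). Gpi1, an early step of glycolysis, rose from 70.2 ± 5.28 to 116 ± 26.1 CPM (log2 fold change 0.72 ± 0.11, adjusted p = 2e-04), and Ldha, lactate dehydrogenase, from 298 ± 27.3 to 412 ± 54.5 CPM (log2 fold change 0.47 ± 0.09, adjusted p = 0.00156). The gluconeogenic genes G6pc (log2 fold change 0.48 ± 0.26, adjusted p = 0.252) and Pck1 (log2 fold change 0.44 ± 0.24, adjusted p = 0.237) were not called. At 19–21 weeks 2 of the 43 rose, and 14 had an unadjusted interaction p under 0.05.

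Insulin and nutrient signalling showed single changes. Of 22 tested genes of insulin signalling 1 rose and 2 fell, a share of 13.64% called and near the 14.9% of all tested genes. Irs2, a docking protein of the insulin receptor, fell from 45.6 ± 13.8 to 21.4 ± 6.92 CPM (log2 fold change -1.09 ± 0.29, adjusted p = 0.0138). Grb10, an inhibitor of that receptor, fell from 22.8 ± 5.54 to 9.69 ± 2.298 CPM (log2 fold change -1.24 ± 0.22, adjusted p = 5.2e-04). Gsk3b, a kinase of glycogen synthase, rose slightly (log2 fold change 0.27 ± 0.06, adjusted p = 0.00546). Without control replicate 2 or 4 a further gene of the list was called up. Of 36 tested genes of the mTOR complexes and their regulators 3 rose and none fell, a share of 8.33% called against 14.9% of all tested genes. Mtor, the growth-controlling kinase, stood at 176, 145, 126, 117 and 142 CPM in Titan and 59.2, 101, 92.3, 102 and 102 CPM in control livers, without overlap (log2 fold change 0.63 ± 0.15, adjusted p = 0.00724). Sesn2, a leucine-sensing inhibitor of mTORC1 (log2 fold change 1.0 ± 0.19, adjusted p = 0.00122), and Castor2, related to an arginine sensor (log2 fold change 0.88 ± 0.18, adjusted p = 0.00224), rose as well.

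Many genes of amino acid breakdown fell. Of 45 tested genes of the urea cycle and amino acid catabolism 18 fell (40%, against 7.69% of all tested genes) and 1 rose (median log2 fold change -0.29). The rise was lost without any one of Titan replicates 1, 2, 3 and 5 and control replicates 1 to 4. On that list 12 genes fell without Titan replicate 1 and control replicate 4, and at 19–21 weeks 23 genes fell. Agxt, which detoxifies glyoxylate, was counted at 79.2, 72.9, 86.5, 126 and 69.2 CPM in Titan and 236, 283, 255, 261 and 236 CPM in control livers. Replicate 4 was again the highest Titan liver and far below every control (log2 fold change -1.55 ± 0.15, adjusted p = 1.2e-06), and the change at 19–21 weeks was -1.50. Ivd, of leucine breakdown, stood at 93.9, 91.7, 103, 121 and 97.3 CPM in Titan and 179, 198, 210.1, 224 and 193 CPM in control livers (log2 fold change -0.99 ± 0.11, adjusted p = 3.8e-06). Hpd, of tyrosine breakdown, fell from 1290 ± 265 to 741 ± 95.04 CPM (log2 fold change -0.80 ± 0.13, adjusted p = 2.5e-04). Acmsd, which decides the fate of tryptophan's carbon, stood at 13.02, 7.66, 5.4, 8.64 and 6.22 CPM in Titan and 28.01, 14.4, 24.6, 62.01 and 22.8 CPM in control livers, with control replicate 2 nearest to Titan (log2 fold change -1.90 ± 0.31, adjusted p = 2.8e-04). Aadat, a transaminase of the lysine and kynurenine routes that was not on the list, stood at 61.3, 64.9, 78.2, 89.6 and 69.2 CPM in Titan and 214, 154, 144, 169.5 and 165 CPM in control livers (log2 fold change -1.22 ± 0.13, adjusted p = 2.9e-06). Its change at 19–21 weeks was -0.32 (interaction adjusted p = 0.0905).

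**Figure D4:**
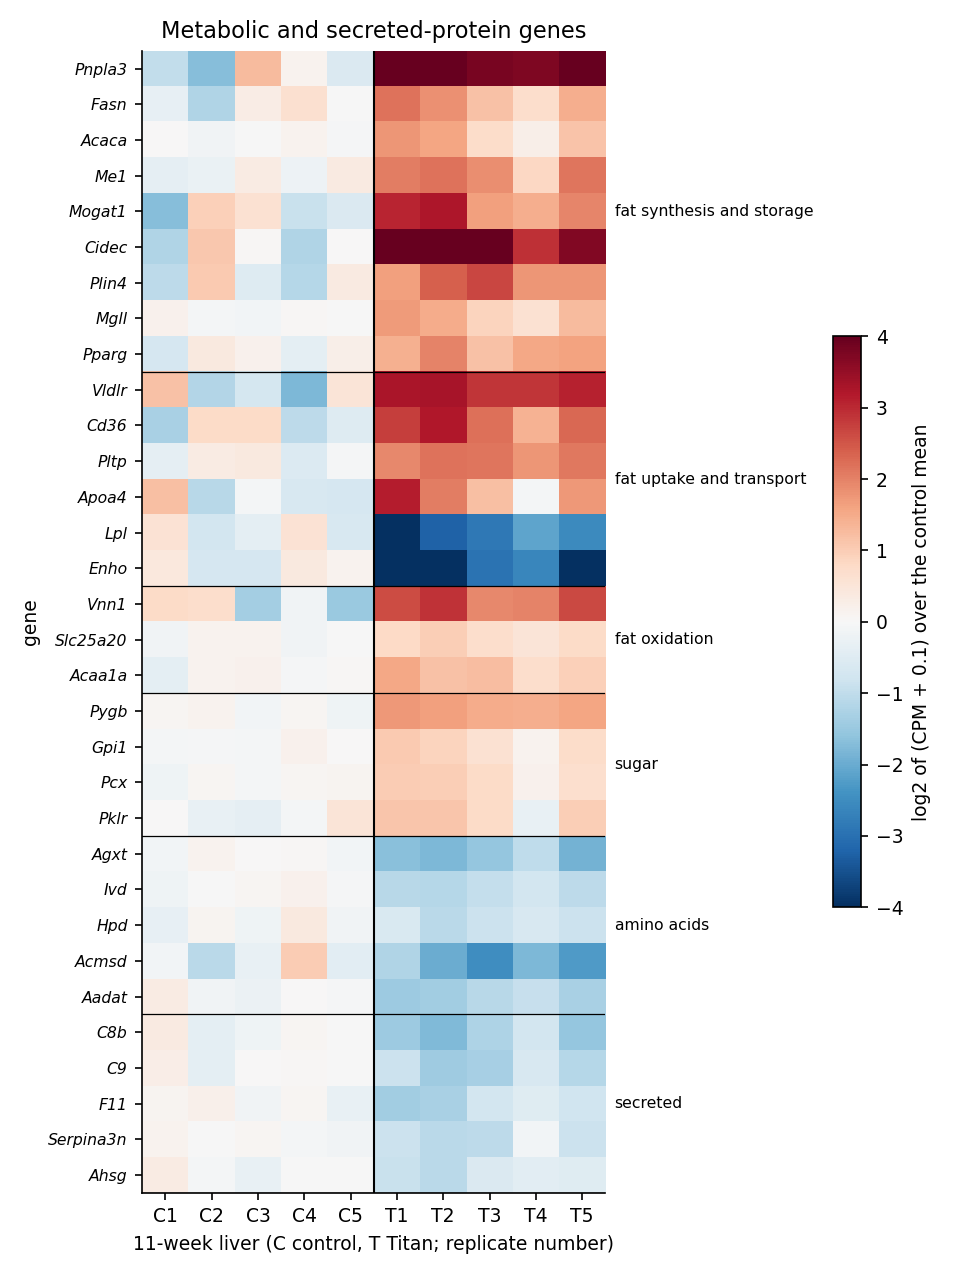
Log2 of CPM plus 0.1 over the control mean for 32 genes (rows) in the 11-week livers (columns, C control and T Titan with replicate numbers), with the colour scale ending at 4 in either direction. Fat and sugar genes other than Lpl and Enho are mostly red in Titan livers, amino acid and plasma protein genes blue, and T4 is the palest Titan liver for many genes.

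Of 17 tested steroid dehydrogenases and reductases 8 fell (47.06%, against 7.69% of all tested genes) and none rose. Hsd3b3, a 3-beta-hydroxysteroid dehydrogenase, was counted at 54.8, 61.6, 47.9, 59.1 and 54.6 CPM in Titan and 219, 205, 193, 163 and 190.0 CPM in control livers, each group in a tight range (log2 fold change -1.80 ± 0.13, adjusted p = 1.6e-08), and changed by -1.89 at 19–21 weeks. Hsd11b1, which regenerates active glucocorticoid, fell from 529.9 ± 45.04 to 331 ± 52.5 CPM (log2 fold change -0.68 ± 0.14, adjusted p = 0.00231). Hsd17b2, which inactivates estradiol and testosterone, fell from 166 ± 5.01 to 123 ± 12.99 CPM (log2 fold change -0.42 ± 0.08, adjusted p = 0.0016). The hydroxysteroid dehydrogenase gene Akr1c6 fell from 936 ± 112 to 614 ± 129.5 CPM (log2 fold change -0.61 ± 0.14, adjusted p = 0.00435). Of 14 tested carboxylesterases 5 fell (35.71%, against 7.69% of all tested genes) and 1 rose. The rise was lost without control replicate 1 or 2 or Titan replicate 3 or 5. Ces2a stood at 112, 157, 199, 179 and 176 CPM in Titan and 418, 373, 388, 385 and 359.6 CPM in control livers (log2 fold change -1.23 ± 0.11, adjusted p = 4.8e-07). Ces2c (log2 fold change -1.77 ± 0.29, adjusted p = 3.1e-04) and Ces2b (log2 fold change -2.75 ± 0.50, adjusted p = 6.8e-04) fell with it, and 10 of the 14 had an unadjusted interaction p under 0.05.

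Of 30 tested glutathione transferases and NRF2 targets 8 fell (26.67%) and 4 rose (13.33%), against 7.69% and 7.23% of all tested genes. Without Titan replicate 1 and control replicate 4, 5 fell. Besides Gstp1, Gsta2 fell from 15.1 ± 5.05 to 3.35 ± 0.608 CPM (log2 fold change -2.19 ± 0.30, adjusted p = 3.8e-05) and Gsta4 from 78.3 ± 11.4 to 53.4 ± 6.08 CPM (log2 fold change -0.55 ± 0.11, adjusted p = 0.00147). Nfe2l2, which encodes NRF2, the transcription factor of the antioxidant response, rose and stood at 127, 127, 115, 84.3 and 108 CPM in Titan and 57.03, 67.5, 72.1, 59.8 and 62.7 CPM in control livers (log2 fold change 0.82 ± 0.16, adjusted p = 0.00125). Gclc, which limits glutathione synthesis, rose from 563 ± 57.1 to 821 ± 108 CPM (log2 fold change 0.54 ± 0.14, adjusted p = 0.0127) and Mgst3 from 6.69 ± 1.096 to 13.3 ± 1.92 CPM (log2 fold change 0.98 ± 0.24, adjusted p = 0.00651). Of 20 tested glucuronosyltransferases 4 rose (20%) and 3 fell (15%), against 7.23% and 7.69% of all tested genes. Ugt2b37 stood at 56.2, 48.2, 54.4, 41.5 and 81.8 CPM in Titan and 3.88, 4.42, 2.62, 2.32 and 2.28 CPM in control livers (log2 fold change 4.21 ± 0.50, adjusted p = 9.6e-06), while its paralog Ugt2b1 fell as given above. Reads shared between paralogs of these families were not counted, so the split between members is uncertain.

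The pericentral list, of genes made around the central vein, had 7 falls (28%) and 1 rise (4%) among 25 tested. The periportal list had 7 falls (28%) and 3 rises (12%) among 25. Of all tested genes 7.69% fell and 7.23% rose. Gulo, which is needed for vitamin C synthesis, was counted at 116, 105, 122, 139.7 and 142 CPM in Titan and 352, 286, 268, 419 and 363 CPM in control livers (log2 fold change -1.43 ± 0.16, adjusted p = 4.7e-06). It changed by -0.45 at 19–21 weeks (interaction adjusted p = 0.144). The Wnt targets Lgr5, a receptor (log2 fold change -1.03 ± 0.21, adjusted p = 0.00236), and Notum, a Wnt-inactivating enzyme (log2 fold change -0.90 ± 0.21, adjusted p = 0.00584), fell as well. Glul, glutamine synthetase and the most strictly pericentral of these genes, averaged 509 ± 39.4 CPM in Titan and 489 ± 89.1 CPM in control livers, with overlap (log2 fold change 0.06 ± 0.16, adjusted p = 0.864). The falls of the periportal list were 2 without control replicate 4, 3 without Titan replicate 2, 3 or 5, and 4 without Titan replicate 4. Hal, histidine ammonia-lyase, was among its falls (from 501 ± 88.8 to 316 ± 36.1 CPM; log2 fold change -0.66 ± 0.13, adjusted p = 0.00116).

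Many plasma protein genes fell. Of 53 tested genes of the acute phase, complement and coagulation 18 fell (33.96%, against 7.69% of all tested genes) and 1 rose (median log2 fold change -0.28). Without Titan replicate 1 and control replicate 4, 13 fell. At 19–21 weeks 3 fell and 3 rose, and 15 had an unadjusted interaction p under 0.05. C9, of the membrane attack complex, was counted at 994, 668, 718, 1162 and 817 CPM in Titan and 2183, 1360, 1811, 1865 and 1767 CPM in control livers, without overlap (log2 fold change -1.04 ± 0.19, adjusted p = 8e-04). C8b stood at 196, 158, 228, 319 and 183 CPM in Titan and 691, 411, 473, 569 and 529 CPM in control livers (log2 fold change -1.30 ± 0.19, adjusted p = 7.4e-05). Its change at 19–21 weeks was -0.13 (interaction adjusted p = 0.144). C6 and C8a, counted among the male-biased genes above, fell as well, C6 by a log2 fold change of -0.90 ± 0.18, adjusted p = 0.00162 and C8a by one of -0.56 ± 0.16, adjusted p = 0.0202. The call of C8a was lost without Titan replicate 1 or 2 (adjusted p = 0.0602 without the latter). F11, coagulation factor XI, stood at 41.6, 43.8, 64.6, 76.8 and 62.4 CPM in Titan and 117, 125, 97.8, 114 and 88.3 CPM in control livers (log2 fold change -0.91 ± 0.16, adjusted p = 5.5e-04). Serpina3n, an inhibitor induced by inflammation, fell from 425 ± 35.7 to 254 ± 79.3 CPM (log2 fold change -0.74 ± 0.14, adjusted p = 8.3e-04). Lcn2, an iron-binding protein of inflammation, was the one that rose (log2 fold change 1.62 ± 0.34, adjusted p = 0.00242).

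Genes of hormones and other regulators made by the liver moved both ways, with 8 of 30 tested up (26.67%) and 5 down (16.67%). Of all tested genes 7.23% rose and 7.69% fell. In 3 of the 30 at least 1 control, but no Titan liver, was below the expression limit. Enho, which encodes adropin, a secreted peptide linked to energy balance, was counted at 0.758, 0.469, 2.55, 3.28 and 1.01 CPM in Titan and 27.8, 12.7, 12.9, 26.7 and 22.7 CPM in control livers, without overlap (log2 fold change -3.74 ± 0.55, adjusted p = 9e-05). Its change at 19–21 weeks was -0.18 (interaction adjusted p = 0.0905). Fgf21, a hormone of nutrient stress, stood at 5.44, 5.08, 4.16, 5.56 and 6.51 CPM in Titan and 2.45, 0.416, 2.28, 0.488 and 2.07 CPM in control livers (log2 fold change 1.79 ± 0.48, adjusted p = 0.0144) and changed by 3.09 at 19–21 weeks. Gdf15, a stress hormone, rose from 2.397 ± 1.25 to 6.74 ± 3.27 CPM (log2 fold change 1.47 ± 0.39, adjusted p = 0.0144). Rbp4, the retinol carrier, fell from 1997 ± 57.8 to 1399 ± 71.7 CPM (log2 fold change -0.51 ± 0.08, adjusted p = 9.2e-05). Ahsg, which encodes fetuin A, fell from 5861 ± 956 to 3696 ± 692 CPM (log2 fold change -0.67 ± 0.14, adjusted p = 0.00291), and Lect2 from 66.5 ± 6.296 to 38.6 ± 8.65 CPM (log2 fold change -0.78 ± 0.14, adjusted p = 4.5e-04). The 8 rises were 5 without control replicate 2 or 5 or without Titan replicate 1 or 2, and 3 without both Titan replicate 1 and control replicate 4.

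**Figure D5:**
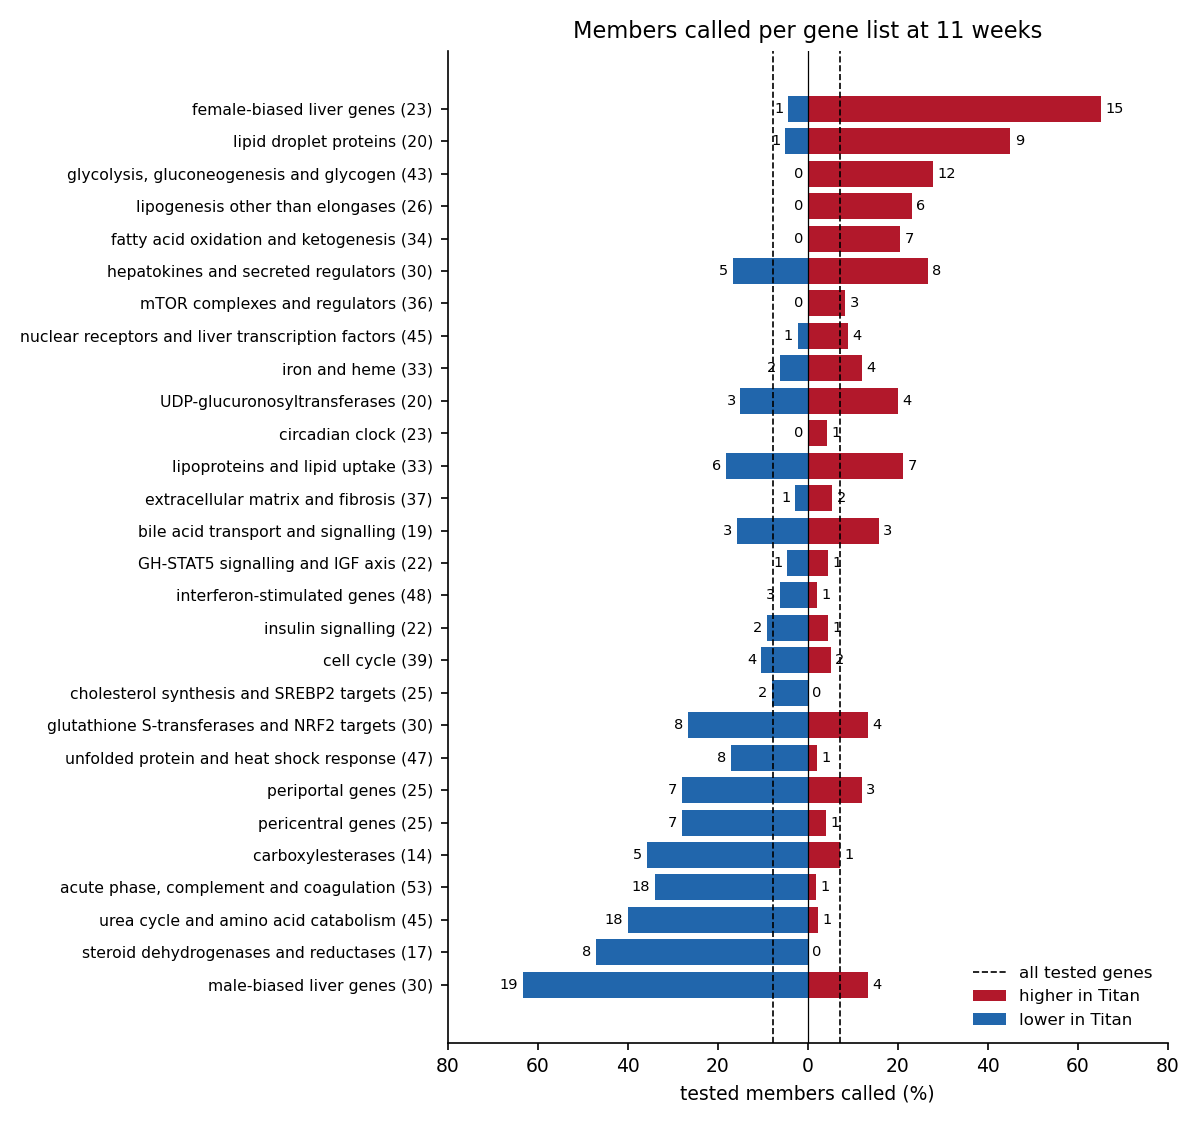
Percent of tested members called up (red, to the right) and down (blue, to the left) in Titan livers at 11 weeks for 28 gene lists, with the number tested in brackets and the counts at the bar ends. Dashed lines mark the 7.23% up and 7.69% down among all tested genes, past which the female-biased and lipid droplet lists reach furthest upwards and the male-biased and steroid lists furthest downwards.

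Of 45 tested nuclear receptors and liver transcription factors 4 rose and 1 fell, a share of 11.11% called against 14.9% of all genes. Besides Pparg, the retinoic acid receptor genes Rarb, at 11.6, 10.6, 6.42, 6.75 and 11.6 CPM in Titan and 4.13, 6.08, 3.27, 5.37 and 4.07 CPM in control livers (log2 fold change 1.05 ± 0.22, adjusted p = 0.00232), and Rarg (log2 fold change 0.66 ± 0.14, adjusted p = 0.00199) rose. Foxa2, a pioneer factor of hepatocytes, fell from 36.5 ± 6.28 to 23.2 ± 3.67 CPM (log2 fold change -0.66 ± 0.18, adjusted p = 0.0143). Hnf4a (log2 fold change -0.18 ± 0.11, adjusted p = 0.32), the master regulator of hepatocyte genes, and the xenobiotic receptors Nr1i2 (log2 fold change 0.20 ± 0.11, adjusted p = 0.27) and Nr1i3 (log2 fold change -0.19 ± 0.22, adjusted p = 0.625) were not called. Without control replicate 1 or 4 or Titan replicate 4 a second factor was called down. In bile acid transport 3 of 19 rose and 3 fell, 15.79% each, against 7.23% and 7.69% of all tested genes. Abcb4, the phospholipid exporter of bile, rose from 276 ± 29.1 to 493 ± 120.4 CPM (log2 fold change 0.83 ± 0.14, adjusted p = 4.5e-04). Abcb11, the bile salt export pump, fell from 1071 ± 97.03 to 726 ± 62.4 CPM (log2 fold change -0.56 ± 0.14, adjusted p = 0.0109). Of 23 tested clock genes 1 rose (4.35%, against 7.23% of all tested genes). The count was 2 without control replicate 5 and 0 without control replicate 2, 3 or 4 or Titan replicate 1, 2, 3 or 5. Arntl (log2 fold change -0.27 ± 0.28, adjusted p = 0.587) and Dbp (log2 fold change -0.46 ± 1.07, adjusted p = 0.833) were not called.

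Lists of stress, immune and growth genes were counted in the same way. Of 47 tested genes of the unfolded protein and heat shock responses 8 fell (17.02%, against 7.69% of all tested genes). The 1 rise (2.13%, against 7.23%) was Vcp, described below with its copy. Without any one of Titan replicates 1, 2 and 3 the falls were 5. The falls with the smallest p were Pdia3, a disulfide isomerase (from 528 ± 67.02 to 386 ± 25 CPM; log2 fold change -0.45 ± 0.09, adjusted p = 0.00129), Pdia6 (log2 fold change -0.67 ± 0.15, adjusted p = 0.00392), Calr, calreticulin (log2 fold change -0.41 ± 0.09, adjusted p = 0.00479), and Sdf2l1 (log2 fold change -1.33 ± 0.32, adjusted p = 0.00726). Of 48 tested interferon-stimulated genes 1 rose, Cxcl9, a chemokine of T cells (log2 fold change 1.09 ± 0.28, adjusted p = 0.011), and 3 fell, which is under the background in both directions. The 3 falls were 1 without control replicate 5 or Titan replicate 1 and 0 without both Titan replicate 1 and control replicate 4, and Ifi27 led them (log2 fold change -0.87 ± 0.24, adjusted p = 0.0171). Of 39 tested cell cycle genes 2 rose and 4 fell, a share of 15.38% called and near the 14.9% of all tested genes. Cdkn1a, the cell cycle inhibitor p21, stood at 62.8, 40.6, 24.2, 17.1 and 29.6 CPM in Titan and 13.3, 4.25, 12.7, 11.8 and 15.6 CPM in control livers (log2 fold change 1.59 ± 0.42, adjusted p = 0.0121). The 4 falls were 0 without Titan replicate 1 or 3, 1 without Titan replicate 2 or control replicate 3 or 4, and 7 without control replicate 1, and the 2 rises were 1 without Titan replicate 2 or 4 or control replicate 1 or 3. Of 37 tested matrix genes 2 rose and 1 fell, a share of 8.11% called and below that of all tested genes. Among them were Lamc1, a laminin chain (log2 fold change 0.43 ± 0.12, adjusted p = 0.0152), and Timp2, an inhibitor of matrix proteases (log2 fold change -0.54 ± 0.14, adjusted p = 0.00881). The 2 rises were 1 without control replicate 1, 3 or 5 or Titan replicate 2 or 5, and the fall had a second beside it without control replicate 1 or 3. In iron and heme metabolism 4 of 33 rose and 2 fell, a share of 18.18% called against 14.9% of all tested genes. The falls were 0 without control replicate 5 and 1 without any other liver except control replicate 3. The rises were Slc40a1, the iron exporter ferroportin (log2 fold change 0.65 ± 0.15, adjusted p = 0.00463), Flvcr1, a heme exporter (log2 fold change 0.67 ± 0.14, adjusted p = 0.00315), Hamp2 and Lcn2, described above.

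Markers of other cell types were set beside these results. The summed level of 22 Kupffer cell and macrophage markers was 677.5 to 837.9 CPM in Titan and 571.9 to 616.7 CPM in control livers, without overlap. Up were 2 of 20 tested genes (Ly6c2 and Slc40a1), a share of 10%, near the 7.23% of all tested genes. Without Slc40a1 the sums overlapped, at 293.1 to 408.3 and 329.9 to 403.1 CPM. Ly6c2, of inflammatory monocytes, stood at 1.24, 0.703, 1.24, 1.59 and 1.51 CPM in Titan and 0.169, 0.167, 0.248, 0.366 and 0.138 CPM in control livers (log2 fold change 2.44 ± 0.35, adjusted p = 6.7e-05). The Kupffer genes Clec4f (log2 fold change -0.33 ± 0.20, adjusted p = 0.302) and Cd163 (log2 fold change -0.25 ± 0.20, adjusted p = 0.449) were not called. Sinusoidal endothelial markers summed to 759.2 to 904.5 CPM in Titan and 886.7 to 964.4 CPM in control livers. Down were 3 of 18 (16.67%, against 7.69% of all tested genes). That count was 0 without control replicate 2 or 5 or Titan replicate 1 or 2, and 1 without control replicate 4 or Titan replicate 3 or 5. Stellate cell markers summed to 850.9 to 981.9 and 739.2 to 928.4 CPM, with 1 of 15 up (2 without Titan replicate 3). The 1 gene is a share of 6.67%, near the 7.23% of all tested genes. Cholangiocyte markers summed to 170.6 to 242.6 and 147.1 to 203.6 CPM, with 2 of 7 up, a share of 28.57% (1 without control replicate 2 or 4 or any one of Titan replicates 2 to 5). Among the latter Pkhd1, a gene of the primary cilium of bile duct cells, stood at 40.8, 45.1, 36.3, 48.8 and 47.2 CPM in Titan and 13.8, 19.7, 20.4, 17.6 and 17.7 CPM in control livers (log2 fold change 1.29 ± 0.12, adjusted p = 1.2e-06). Of the 14 markers 7 were under 1 CPM in every liver. Hepatocyte markers had 5 falls (31.25%, against 7.69% of all tested genes) and no rise among 16 tested. The falls were 2 without Titan replicate 2 or 5 and 3 without Titan replicate 3 or control replicate 1, 4 or 5. Lymphocyte and granulocyte markers were scarce, 20 of 25 under 1 CPM in every liver. Cd3e rose (log2 fold change 3.94 ± 0.63, adjusted p = 2.2e-04) and Cd4 fell (log2 fold change -1.71 ± 0.42, adjusted p = 0.0075), 2 genes that T helper cells express together. Adipocyte and pancreas markers summed to 7.58 to 15.8 CPM in Titan and 24.2 to 41.1 CPM in control livers, with 8 of 16 at 0 in every liver. Most of that sum was Cela1, a serine protease gene (log2 fold change -1.95 ± 0.22, adjusted p = 6.2e-06), and without it the sums overlapped (0.5042 to 4.451 and 0.4878 to 2.665 CPM). The part of these cells in the results above was not tested.

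Genes in regions that differ in DNA between the lines had 18 up (16.22%) and 15 down (13.51%) of 111 tested. Over all tested genes the shares were 7.23% and 7.69%. The study drew this list of 173 genes from genome sequences and not from these livers. Of the 111 genes, 25 did not overlap between the groups, against 11.9% of all tested genes. Whether DNA differences between the lines altered the read counts was not tested. Anxa2 and Anxa5, calcium-dependent membrane-binding proteins, rose together. Anxa2 stood at 25.1, 40.6, 30.4, 29.8 and 36.5 CPM in Titan and 7.93, 10.2, 7.92, 7.74 and 7.31 CPM in control livers (log2 fold change 1.98 ± 0.23, adjusted p = 9e-06). Anxa5 rose from 40.7 ± 7.43 to 115 ± 18.4 CPM (log2 fold change 1.49 ± 0.16, adjusted p = 3e-06). Tcaf1, a partner of the TRPM8 channel, stood at 12.1, 13.6, 13.7, 12.9 and 13.4 CPM in Titan and 4.39, 5.16, 4.31, 2.81 and 3.59 CPM in control livers (log2 fold change 1.70 ± 0.17, adjusted p = 1.4e-06), and changed by 1.65 at 19–21 weeks. Unc13b, of vesicle priming, stood at 49.8, 52.8, 52.2, 48.2 and 44.2 CPM in Titan and 22.6, 6.997, 6.98, 5.49 and 13.2 CPM in control livers (log2 fold change 2.18 ± 0.33, adjusted p = 1.3e-04). Scn4b, a sodium channel subunit, had 107 counts over the Titan livers and none over the controls, which is at least 6.56-fold higher against a floor of 3 counts per library. Tpd52l1 (log2 fold change -1.14 ± 0.20, adjusted p = 4.6e-04) and Ddi2 (log2 fold change -0.55 ± 0.10, adjusted p = 5.2e-04) fell. Without Titan replicate 1 and control replicate 4 the counts were 13 up and 9 down, and without Titan replicate 2 alone 10 fell.

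Some of the protein-coding genes with the smallest p among those without overlap have near-identical copies. Vcp (ENSMUSG00000028452, chromosome 4, 42979963 to 43000507), an ATPase that extracts proteins for degradation, was counted at 92.6, 95.1, 105, 84.3 and 86.3 CPM in Titan and 29.9, 25.7, 31.7, 25.6 and 24.97 CPM in control livers (log2 fold change 1.75 ± 0.08, adjusted p = 2.4e-11). Its processed copy Vcp-rs on the X chromosome went the other way (log2 fold change -4.38 ± 0.11, adjusted p = 1.3e-16). Summed over both, the level was 94.7 ± 8.03 CPM in Titan and 72.8 ± 5.88 CPM in control livers (SD, n = 5), so the split between the copies is uncertain. The study names Vcp among the genes of regions that differ in DNA in Titan mice, and an effect of this on its counts was not tested. Rps24, a ribosomal protein, fell (log2 fold change -1.43 ± 0.13, adjusted p = 6.9e-07). Its copy Rps24-ps3 rose (log2 fold change 1.72 ± 0.56, adjusted p = 0.0428), a call lost without any one Titan liver or control replicate 1, 2 or 5 (adjusted p up to 0.087), with sums of 27.3 ± 3.56 and 45.6 ± 4.72 CPM. Hba-a2, an alpha globin, had 802 counts over the Titan livers and 1 over the controls, a ratio of 803 with a 95% counting interval of 144 to 31740, and with its near-identical neighbour Hba-a1 the sums were 24.1 ± 6.76 and 17.4 ± 5.15 CPM. Acpp (ENSMUSG00000032561, chromosome 9, 104288251 to 104337748), a prostatic acid phosphatase, had 1861 counts over the Titan livers and 1 over the controls, a ratio of 1863 (334 to 73610). These intervals cover counting error only.

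Gm6614 (ENSMUSG00000079263, chromosome 6, 141971845 to 142011414), an uncharacterised gene of the Slco1 transporter region, stood at 11.7, 9.77, 17.4, 18.5 and 16.6 CPM in Titan and 0.675, 0.666, 0.644, 0.244 and 0.345 CPM in control livers (log2 fold change 4.84 ± 0.30, adjusted p = 1.5e-09). Its change at 19–21 weeks was 2.10, and its interaction held after adjustment (adjusted p = 0.0103). Gprc5b (ENSMUSG00000008734, chromosome 7, 118972047 to 118995211), an orphan receptor linked to inflammation in fat tissue, stood at 42.9, 54.7, 42.4, 13.4 and 18.7 CPM in Titan and 0, 0.4998, 0.347, 0.183 and 0.06898 CPM in control livers, highest in replicate 2 (log2 fold change 7.19 ± 0.75, adjusted p = 2.9e-06). Gdpd5, a glycerophosphodiesterase (log2 fold change 2.87 ± 0.29, adjusted p = 2.2e-06), Fhl3, a LIM-domain protein (log2 fold change 3.33 ± 0.34, adjusted p = 2.9e-06), and Anks6, a protein of the primary cilium (log2 fold change 3.33 ± 0.35, adjusted p = 3e-06), rose from low control levels of 0.9299 ± 0.4498, 0.329 ± 0.0933 and 0.224 ± 0.116 CPM. Among the falls, Grm8 (ENSMUSG00000024211, chromosome 6, 27275119 to 28135178), a metabotropic glutamate receptor, stood at 0.207, 0.156, 1.605, 0.993 and 0.252 CPM in Titan and 10.4, 11.2, 13.7, 14.9 and 12 CPM in control livers (log2 fold change -4.36 ± 0.43, adjusted p = 1.9e-06). It changed by -1.08 at 19–21 weeks (interaction adjusted p = 0.0729). Myh10, a non-muscle myosin chain, stood at 12.7, 7.74, 12.8, 16.5 and 9.03 CPM in Titan and 30.3, 38.5, 33.2, 43.7 and 45.1 CPM in control livers (log2 fold change -1.71 ± 0.18, adjusted p = 2.9e-06). Rfxank, a factor needed for MHC class II transcription (log2 fold change -1.44 ± 0.15, adjusted p = 2.9e-06), Tmem50a (log2 fold change -0.95 ± 0.10, adjusted p = 2.9e-06) and Enpp5 (log2 fold change -0.77 ± 0.08, adjusted p = 3.3e-06) fell as well. Enpp5 was counted at 27.6, 28.8, 27.7, 27.1 and 27.2 CPM in Titan and 49.9, 53.6, 46.9, 43.2 and 42.2 CPM in control livers. Clec2h, a C-type lectin-related gene, was singled out after its values were seen. It had 790 counts over the controls and none over the Titan livers, a mean at least 50.1-fold lower against the same floor. The controls varied, at 6.58, 23.57, 8.716, 15.3 and 0.138 CPM, with replicate 5 close to the Titan level. At 19–21 weeks the controls stood at 0, 8.124, 0, 0 and 0.08389 CPM.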

How the data were processed

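Total liver RNA was depleted of ribosomal RNA and sequenced from strand-specific libraries, 1 per mouse. The authors aligned reads to GRCm38 with STAR 2.5.3a and deposited counts per Ensembl gene; reads mapped to several places or shared by genes were left out. Counts of the reverse strand were used here, without genes of the Y chromosome or histone genes, which the study removed as well. Symbols and positions came from GENCODE M21.

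All 20 libraries were fitted as 4 groups by edgeR 4.0.16 in R 4.3.3 (default expression filter, TMM, quasi-likelihood F test, no covariate), with Benjamini-Hochberg adjustment over 13783 genes and calls at an adjusted p under 0.05. The SE of a log2 fold change was its size divided by the root of F. CPM used no prior count, and ± after a mean is the SD of 5 mice. Groups were taken from the titles, and the mice of a group are separate animals. The tests were tried on simulated data with known changes. The number of reads on genes limits the precision for low counts.

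Genes were named as up to 4 called members per list and direction by p, the 12 protein-coding genes per direction with the smallest p and no overlap, and a set of regulators whatever their values; some of these genes are not reported here. The members and lists were chosen with earlier results of these data known. Alternatives were DESeq2 1.42.0, RLE scaling, other filters, both strands, Y and histone genes kept, the 11-week libraries fitted alone, a replicate block and each library left out. A further 3 were chosen after seeing the data, namely covariates for reads outside genes and for mitochondrial reads, and leaving out the 2 libraries with most reads outside genes. The same holds for marker sums without a single gene. It also holds for the female-biased list without members that had any control, but no Titan liver, below the filter limit.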

Additional observations from a re-analysis of the deposited data

Results flagged for a closer look

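Single livers lay apart from the other 4 of their group in 16 of 334 groups of values examined, and chance alone flags about 1 in 20. Titan replicate 4 was the one apart for Keg1 (395.2 CPM against 256.5 to 295.3), Susd4 (7.149 against 1.25 to 2.825), C6 (396.6 against 199.7 to 254.4) and Serpina3n (392.6 against 200.4 to 236.1), each time towards the controls. Control replicate 1 stood high for Fabp5 (67.91 CPM against 11.24 to 17.38), Mup20 (985 against 115.4 to 353.9) and Apoa4 (482.1 against 96.21 to 197.8), low for Mtor (59.22 against 92.26 to 102.1), and held the single control read of Acpp (0.08436). The single control read of Hba-a2 lay in replicate 5 (0.06898). Control replicate 3 stood high for A1bg (1.733 CPM against at most 0.3049) and Gsta4 (97.86 against 68.75 to 76.57), control replicate 4 for Acmsd (62.01 against 14.41 to 28.01) and Anks6 (0.4268 against 0.1486 to 0.2069), and control replicate 2 for Anxa2 (10.25 against 7.312 to 7.93), while replicate 2 was low for Arntl (33.24 against 40.74 to 43.72).

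The Titan effect on Gm6614 was larger at 11 than at 19–21 weeks by 2.74 on the log2 scale, the single interaction that passed the test after adjustment.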

How the results depend on the processing

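The 997 upregulated genes stayed between 702 and 1167 under every alternative, and between 796 and 1035 with single libraries left out. The 1060 downregulated genes were 645 with a log2 fold change beyond 0.5 required as well, 701 without Titan replicate 1 and control replicate 4, and between 818 and 1032 with single libraries left out. The 1 gene whose Titan effect differed between the ages became 87 genes with DESeq2 and 26 with no filter on low counts. With single libraries left out the number ran from 1 to 56, the 56 being without young Titan replicate 4, 9 without old Titan replicate 4 and 6 without young control replicate 1, and the cause was not tested. The titles do not say whether equal replicate numbers link mice. Same-numbered livers of the groups deviated from their means with correlations of -0.139 to -0.042, which show no sign of a link but cannot exclude one. With the replicate block 933 genes rose, 943 fell and 1 differed between the ages. With the block the periportal falls were 4 in place of 7 and the falls of the unfolded protein list 5 in place of 8. Of 141 named genes that were called, 127 kept the call under every alternative in which they were tested. Scarce genes, among them A1bg, Hao2, Cidec and Ly6c2, were not tested under every alternative. Without Titan replicate 1 and control replicate 4 the call was lost for Trim24, Stat5a, Cidea, Abca1, Apoa4, C8a, Fgf21, Foxa2, Cdkn1a, Ifi27, Timp2 and Cd4, and with the 11-week libraries fitted alone for Apoa1 and Rps24-ps3, the latter also with DESeq2 and with the mitochondrial share as a covariate. No named gene changed direction while called. Differences in genes with few reads are limited by depth and may have been missed.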
